A study of Mus musculus with 11 samples.

Results

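The genes of neutrophil granules and their S100 companions were followed in CLPs, the common lymphoid progenitors of the bone marrow that give rise to lymphocytes. The set was chosen by name, with earlier results of these data known, and holds 10 of the 22180 genes measured. Mpo, Elane, Prtn3 and Ctsg stand for the primary granules, S100a8 and S100a9 for the calprotectin pair, and Camp, Ltf, Ngp and Lcn2 for the later granules. Each of the 10 had 1 probe set with a single gene symbol, so no member was skipped and none needed a choice between probe sets.

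The 11 arrays came from CLPs sorted on day 10 from C57BL/6 mice that had been given PBS or 50 µg of CpG1826 on alternate days. CpG1826 is a synthetic DNA ligand of Toll-like receptor 9. Ly-6D is a surface protein that appears on CLPs as they commit to the B lineage, and the sort split the CLPs by it. Ly-6D+ cells gave 3 arrays with CpG and 2 with PBS, and Ly-6D- cells gave 3 arrays with each treatment. The ages of the mice are not stated. Whether a replicate was 1 animal or a pool is not stated, so each p measures the spread between these arrays, which may be technical.

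Neutrophil granules are filled in steps as the cell matures. Myeloperoxidase and the serine proteases elastase, proteinase 3 and cathepsin G are made first, at the promyelocyte stage, and their genes are already transcribed in granulocyte-monocyte progenitors. Lactoferrin, cathelicidin, neutrophilic granule protein and lipocalin 2 are made later, in myelocytes and metamyelocytes, and S100a8 and S100a9 are among the most abundant cytosolic proteins of the mature cell. The comparison asked whether the early and the late genes moved together between the 2 CLP populations and with CpG.

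The RefSeq promoters of 6 members are printed because they set genes that passed the test between the populations beside genes that did not. The windows are the 200 bases before the start site in GRCm38.p6, read 5′ to 3′ along the gene. They lie at chr11:87793584-87793783, plus strand for Mpo, chr10:79879467-79879666, plus strand for Prtn3, chr14:56102575-56102774, minus strand for Ctsg, chr10:79886112-79886311, plus strand for Elane, chr3:90668871-90669070, plus strand for S100a8 and chr9:110419608-110419807, plus strand for Ngp. Capitals mark matches on either strand to the C/EBP motif TTNNGNAA or the PU.1 motif GAGGAA, both motifs of factors that direct granulocyte genes.
Mpo: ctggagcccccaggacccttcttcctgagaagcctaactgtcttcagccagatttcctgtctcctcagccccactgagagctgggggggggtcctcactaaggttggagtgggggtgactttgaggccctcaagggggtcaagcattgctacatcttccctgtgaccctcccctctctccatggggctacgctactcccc
Prtn3: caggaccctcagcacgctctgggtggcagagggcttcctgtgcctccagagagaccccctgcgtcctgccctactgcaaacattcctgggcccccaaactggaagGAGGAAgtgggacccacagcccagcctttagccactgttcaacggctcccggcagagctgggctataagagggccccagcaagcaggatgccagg
Ctsg: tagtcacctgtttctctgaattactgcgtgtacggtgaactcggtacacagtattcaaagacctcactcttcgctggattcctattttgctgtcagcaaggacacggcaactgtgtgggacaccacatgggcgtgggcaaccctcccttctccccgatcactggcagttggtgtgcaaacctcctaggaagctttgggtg
Elane: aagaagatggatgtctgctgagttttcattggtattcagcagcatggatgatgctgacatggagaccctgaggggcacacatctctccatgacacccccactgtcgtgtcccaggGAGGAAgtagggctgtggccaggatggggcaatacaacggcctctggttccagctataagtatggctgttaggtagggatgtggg
S100a8: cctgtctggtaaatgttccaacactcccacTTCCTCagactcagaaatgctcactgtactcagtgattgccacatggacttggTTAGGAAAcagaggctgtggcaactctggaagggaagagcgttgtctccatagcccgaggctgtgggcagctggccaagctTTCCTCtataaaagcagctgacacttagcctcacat
Ngp: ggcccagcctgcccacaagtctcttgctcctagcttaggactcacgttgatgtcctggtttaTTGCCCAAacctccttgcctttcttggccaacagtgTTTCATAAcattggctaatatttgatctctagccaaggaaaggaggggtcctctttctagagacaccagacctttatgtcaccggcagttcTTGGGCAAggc
Prtn3 and Elane, neighbouring coding genes on chromosome 10, each held 1 PU.1 match on the plus strand of the gene, at bases -95 to -90 and -85 to -80 from the start site. Mpo and Ctsg held neither motif in the window. S100a8 held 2 PU.1 matches and 1 C/EBP match, and Ngp held 3 C/EBP matches. Among the members not printed, S100a9 and Ltf held 1 C/EBP match each, Ltf and Lcn2 held 1 PU.1 match each, and Camp held neither. None of the 4 primary granule genes had a C/EBP match. Of all 32851 promoter windows of this length, 30.0% held the C/EBP motif and 19.0% the PU.1 motif. The MYB motif AACNG, searched in the same way, was present in all 10 members and in 65.8% of all windows. Its match overlapped the C/EBP match in S100a8 and shared 1 base with the PU.1 match in Ltf. A match describes the letters of the window and is not evidence of binding.

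All levels are log2 values from RMA, the method by which the authors corrected background, equalised the arrays and summarised probes. The median of the arrays lay between 3.85 and 3.96. Across all probe sets, array pairs correlated at 0.978 to 0.982 within groups and at 0.973 to 0.981 between groups. Ly6d, the gene of the sorted protein, averaged 12.57 ± 0.03 in Ly-6D+ CLPs after CpG (SD, n = 3) and 12.58 ± 0.02 after PBS (SD, n = 2), against 7.72 ± 0.32 in Ly-6D- CLPs after CpG and 8.23 ± 0.24 after PBS (SD, n = 3 each). The mean signal of each of the 10 members was above 8.51, the 90th percentile of gene means. That places them among bright probe sets without ranking their RNA, because probe sets differ in how well they bind. Of the CLP markers, Il7r, Flt3 and Kit were measured and Rag1 and Ly6a lacked a probe set of their own.

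Mpo, the haem enzyme that makes hypochlorous acid, was lower in Ly-6D+ than in Ly-6D- CLPs. Its level was 9.03, 9.33 and 9.08 in Ly-6D+ CLPs after CpG and 9.74 and 10.30 after PBS. In Ly-6D- CLPs it was 11.12, 11.09 and 10.58 after CpG and 10.87, 10.79 and 10.64 after PBS. No Ly-6D+ array reached the lowest Ly-6D- array, a split over both treatments whose share of all genes was not counted. The 3 Ly-6D+ arrays after CpG were also below both Ly-6D+ arrays after PBS, as for 9.76% of all genes. The 2 treatments of Ly-6D- CLPs overlapped.

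Prtn3, a serine protease that also cuts cytokines, split the populations as Mpo did. Its treatments were apart in Ly-6D- CLPs, where those of Mpo overlapped. Its level was 8.15, 8.65 and 8.16 in Ly-6D+ CLPs after CpG and 8.17 and 8.91 after PBS. In Ly-6D- CLPs it was 10.50, 10.39 and 9.88 after CpG and 9.06, 9.42 and 9.18 after PBS. The Ly-6D- arrays after CpG were all above those after PBS, as for 8.5% of all genes, while the Ly-6D+ arrays of both treatments overlapped.

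Ctsg, cathepsin G, had the widest range of the 10 genes over the 11 arrays, 2.95 log2 units. Its level was 8.55, 8.77 and 8.67 in Ly-6D+ CLPs after CpG and 8.23 and 9.41 after PBS. In Ly-6D- CLPs it was 11.05, 11.18 and 10.85 after CpG and 9.95, 10.23 and 9.61 after PBS. As for Prtn3, the Ly-6D- arrays after CpG stood above every other array, and the share of all genes with this order was not counted. The 2 Ly-6D+ arrays after PBS lay far apart, and the 3 after CpG fell between them.

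Elane, neutrophil elastase, did not follow the other primary granule genes. Its level was 8.15, 8.76 and 8.04 in Ly-6D+ CLPs after CpG and 8.04 and 9.37 after PBS. In Ly-6D- CLPs it was 8.66, 8.99 and 8.25 after CpG and 8.66, 9.36 and 8.74 after PBS. All 4 groups overlapped, although Elane is the coding neighbour of Prtn3, and replicate 2 was the highest array of every group.

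**Figure D1:**
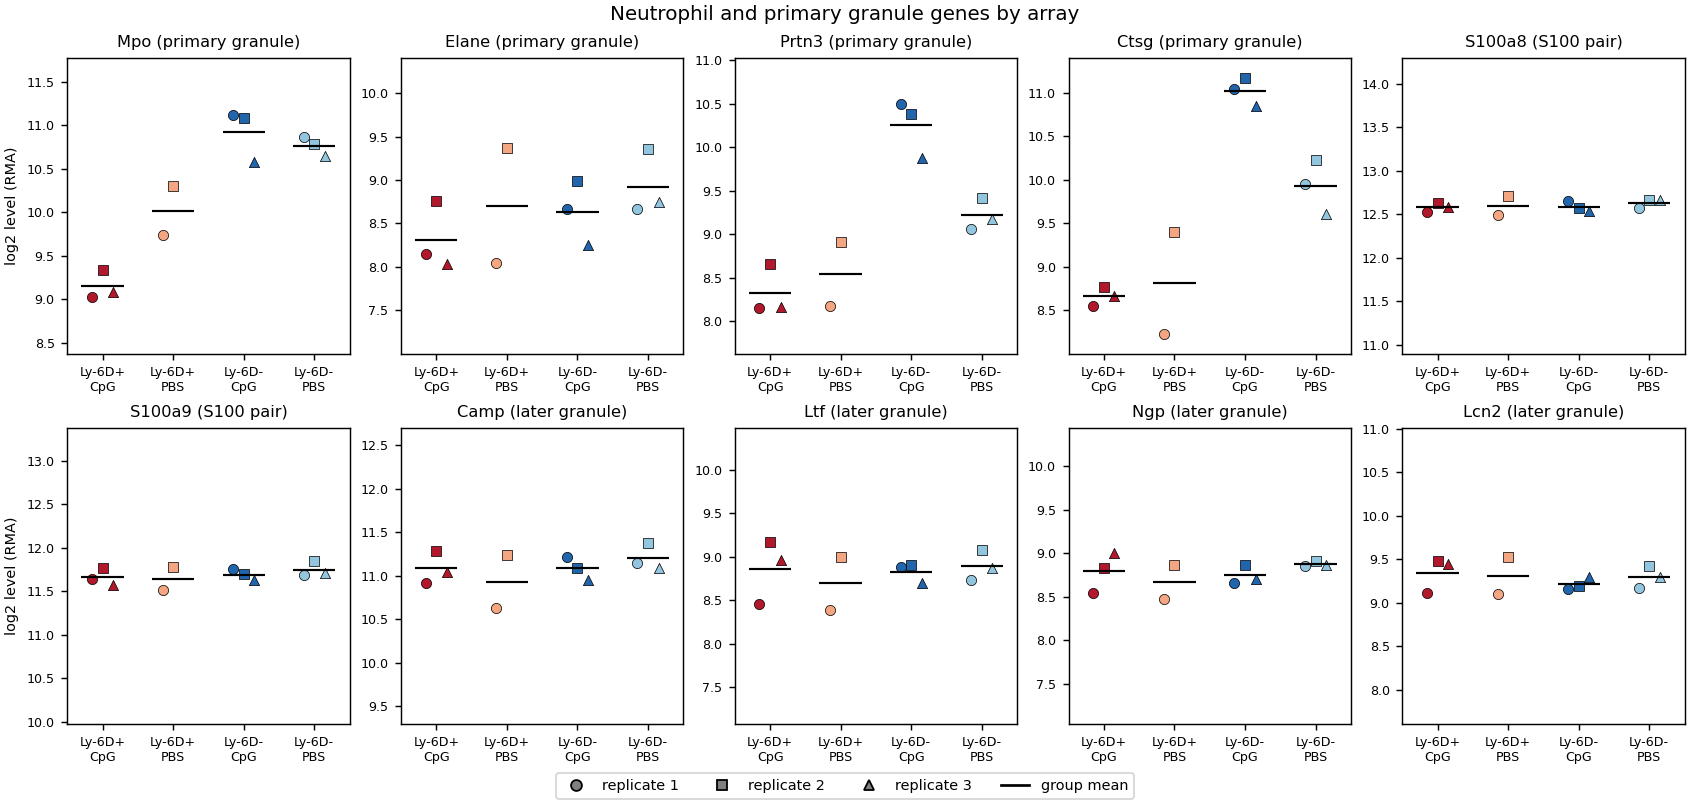
Log2 level of each of the 10 genes (vertical axes, all of equal span) in the 11 arrays by group (horizontal axes), with 1 marker shape per replicate number and a line at each group mean. Mpo, Prtn3 and Ctsg are lower in every Ly-6D+ array than in any Ly-6D- array. Within 1 treatment, 9.04% of all genes were split in this way after CpG and 14.0% after PBS. Elane overlaps between all groups, and S100a8 and S100a9 stay within 0.22 and 0.33 log2 units over all arrays.

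S100a8 and S100a9, the subunits of the calcium-binding protein calprotectin, were nearly level across the study. S100a8 was 12.53, 12.63 and 12.59 in Ly-6D+ CLPs after CpG and 12.49 and 12.71 after PBS. In Ly-6D- CLPs it was 12.66, 12.57 and 12.53 after CpG and 12.57, 12.66 and 12.66 after PBS. S100a9 ranged from 11.51 to 11.84 over the 11 arrays, and both genes overlapped between all groups. The SD of S100a8 over the 11 arrays was 0.0688, smaller than that of all but 2.4% of genes, and that of S100a9 was 0.0964. The brightest value in the table was 13.76, and whether the signal of S100a8 is compressed near the top of the scale was not tested.

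The later granule genes also overlapped between all groups. Camp, the cathelicidin precursor, ranged from 10.63 to 11.37, and Ltf, the iron-binding lactoferrin, from 8.39 to 9.17. Ngp, a cathelicidin-related granule protein, ranged from 8.48 to 9.01, and Lcn2, which binds bacterial siderophores, from 9.10 to 9.52. The lowest array of all 4 genes was replicate 1 of Ly-6D+ CLPs after PBS.

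The early and late genes were then set against each other within each array. The mean of the 4 primary granule genes minus the mean of the 4 later granule genes was -1.13 to -0.79 in Ly-6D+ CLPs after CpG and -0.60 to -0.16 after PBS. In Ly-6D- CLPs it was 0.48 to 0.90 after CpG and 0.01 to 0.25 after PBS. No 2 groups overlapped in this difference, which was not tested, and the share of other gene sets with such a split was not counted. Its sign has no meaning, since it depends on the probe sets. The later genes alone averaged 9.52 ± 0.23 in Ly-6D+ CLPs after CpG (SD, n = 3) and 9.40 ± 0.36 after PBS (SD, n = 2), against 9.47 ± 0.05 in Ly-6D- CLPs after CpG and 9.57 ± 0.11 after PBS (SD, n = 3 each). Taken gene by gene against the later genes, Elane was -1.58 to -0.93 in Ly-6D+ CLPs after CpG and -1.11 to -0.29 after PBS, and -1.17 to -0.53 in Ly-6D- CLPs after CpG and -0.81 to -0.34 after PBS. Only the Ly-6D+ arrays after CpG and the Ly-6D- arrays after PBS were apart in this value for Elane. Mpo, on the same within-array scale, was -0.54 to -0.23 in Ly-6D+ CLPs after CpG and 0.59 to 0.64 after PBS. In Ly-6D- CLPs, Mpo was 1.17 to 1.64 after CpG and 1.09 to 1.39 after PBS. Prtn3 was -1.45 to -1.04 in Ly-6D+ CLPs after CpG and -0.98 to -0.75 after PBS. In Ly-6D- CLPs, Prtn3 was 0.47 to 1.02 after CpG and -0.41 to -0.28 after PBS. Ctsg was -0.94 to -0.71 in Ly-6D+ CLPs after CpG and -0.92 to -0.25 after PBS. In Ly-6D- CLPs, Ctsg was 1.43 to 1.66 after CpG and 0.08 to 0.54 after PBS. In group means, Mpo, Prtn3 and Ctsg shared 1 order. Ly-6D- CLPs after CpG were highest, then Ly-6D- after PBS, Ly-6D+ after PBS and Ly-6D+ after CpG. The 2 treatments overlapped for Mpo in Ly-6D- CLPs and for Ctsg in Ly-6D+ CLPs. Elane departed from this order, with its highest mean in Ly-6D- CLPs after PBS (-0.65).

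**Figure D2:**
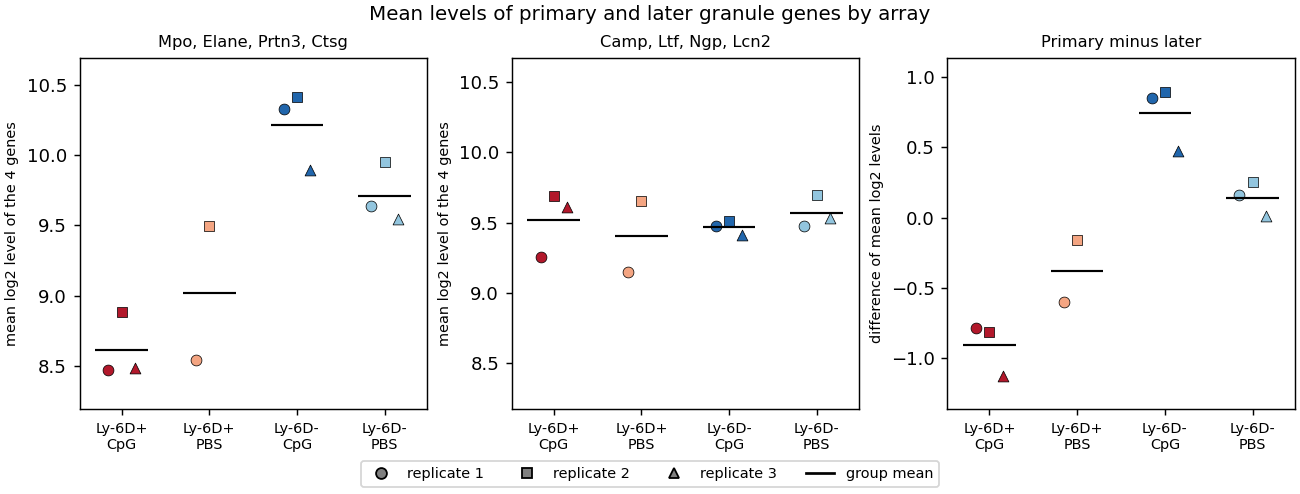
Mean log2 level of the primary granule genes (left), of the later granule genes (middle) and their difference (right) in each array by group, on axes of equal span, with lines at group means. The difference runs from -1.13 to -0.79 in Ly-6D+ CLPs after CpG up to 0.48 to 0.90 in Ly-6D- CLPs after CpG. It shows no overlap between groups, while the later genes overlap throughout. The share of other gene sets with such a split was not counted.

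After CpG, 3 of the 10 genes were lower in Ly-6D+ than in Ly-6D- CLPs, all of them primary granule genes. Ctsg fell by 2.36 on the log2 scale, or was 5.13-fold lower (SE 0.26, limma adjusted p = 0.000806). Prtn3 was 3.82-fold lower (log2 change -1.93, SE 0.23, limma adjusted p = 0.00119), and Mpo 3.44-fold lower (log2 change -1.78, SE 0.18, limma adjusted p = 0.000463). Elane had a log2 change of -0.32 with a 95% interval from -1.07 to 0.44 (adjusted p = 0.777) and did not pass. Of all genes, 2.14% passed this comparison and 0.938% passed as lower in Ly-6D+ CLPs. The arrays of the populations did not overlap for these 3 members, as for the 9.04% of genes that were lower in every Ly-6D+ array. The interval of S100a8 ran from -0.21 to 0.19 and that of S100a9 from -0.26 to 0.19. The 4 later genes had log2 changes from -0.00 for Camp to 0.13 for Lcn2, and the widest of their intervals, that of Ltf, ran from -0.40 to 0.48. The threshold was an adjusted p of 0.05, by Benjamini and Hochberg over the 22180 genes, in limma, which moderates each gene's spread. In bulk RNA of sorted cells, fewer cells carrying a transcript and less of it per cell cannot be told apart.

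After PBS, 0 of the 10 genes passed between the populations in limma, against 1.98% of all genes, and 3 had an unadjusted p below 0.05, against 11.9% of genes. Ctsg had a log2 change of -1.12 (95% interval -1.76 to -0.47, adjusted p = 0.0966), Mpo of -0.75 (-1.19 to -0.30, adjusted p = 0.106) and Prtn3 of -0.68 (-1.24 to -0.12, adjusted p = 0.286). Each of these 3 genes was lower in both Ly-6D+ arrays than in all 3 Ly-6D- arrays, as were 14.0% of all genes. Ctsg passed, with a log2 change of -1.70 and limma adjusted p = 0.00907, when replicate 2 of Ly-6D+ CLPs after PBS was left out, and had a change of -0.53 (adjusted p = 0.455) when replicate 1 was left out. The same 2 omissions gave -1.03 and -0.47 for Mpo and -1.05 and -0.31 for Prtn3, none of which passed. The log2 change of Elane was -0.22 (95% interval -1.06 to 0.63) and those of the S100 and later genes lay between -0.27 for Camp and 0.01 for Lcn2.

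**Figure D3:**
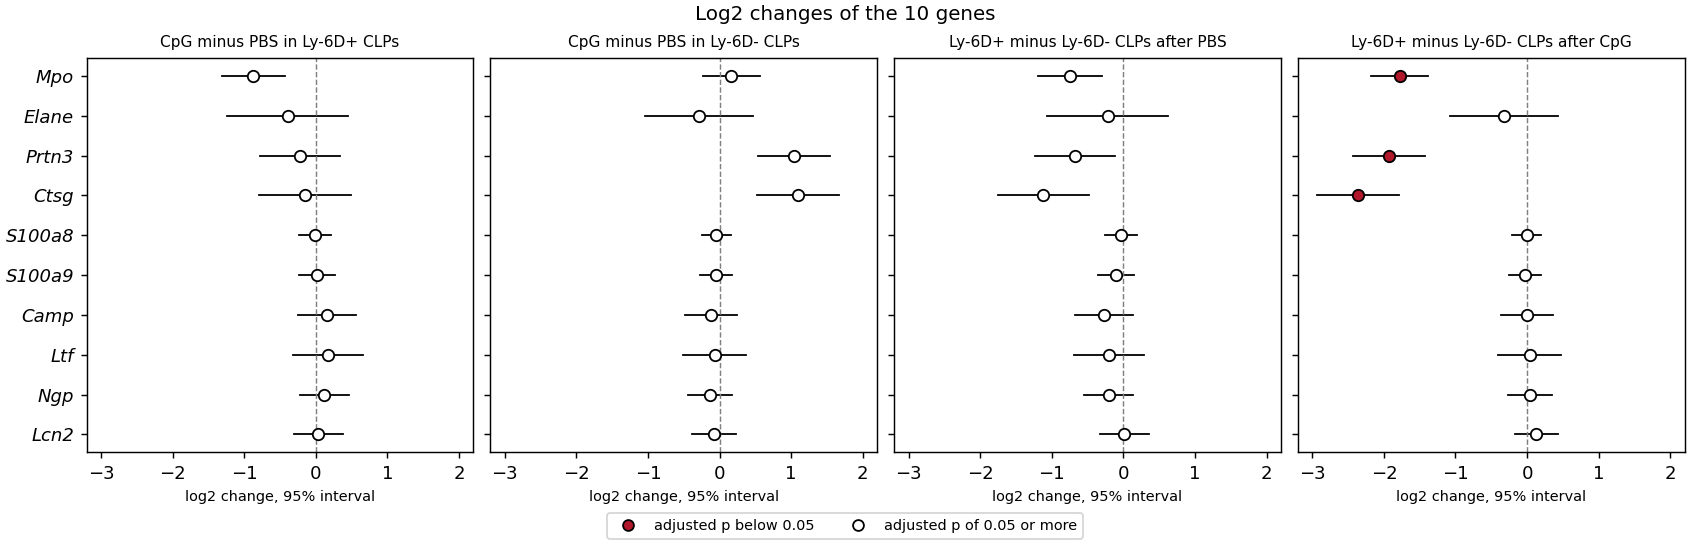
Log2 change of the 10 genes with its 95% interval (horizontal axes) in 4 comparisons, with filled points for a limma adjusted p below 0.05 over all genes. The filled points are those of Mpo, Prtn3 and Ctsg between the populations after CpG, at -1.78, -1.93 and -2.36, and the S100 and later genes lie near 0 in all 4 panels.

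CpG left the 10 genes below the threshold in both populations. In Ly-6D- CLPs, 0 of 10 passed in limma, against 0.546% of all genes, and 2 had an unadjusted p below 0.05, against 12.0% of genes. These 2 were Ctsg, 2.13-fold higher after CpG (log2 change 1.09, 95% interval 0.52 to 1.67, adjusted p = 0.104), and Prtn3, 2.05-fold higher (log2 change 1.04, 95% interval 0.54 to 1.54, adjusted p = 0.0787). Their CpG arrays lay above all PBS arrays, as for 8.5% of genes. Both passed with a variance trend and robust estimation (adjusted p = 0.0344 for Ctsg and 0.0245 for Prtn3). Ctsg also passed without either replicate of Ly-6D+ CLPs after PBS (0.0401 for each), and Prtn3 without replicate 3 of Ly-6D- CLPs after CpG (0.0370). Mpo had a log2 change of 0.16 (95% interval -0.23 to 0.56) and Elane of -0.29 (-1.04 to 0.47).

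In Ly-6D+ CLPs, 0 of 10 genes passed for CpG in limma, against 0.0271% of all genes, and 1 had an unadjusted p below 0.05, against 6.51% of genes. That gene was Mpo, 1.83-fold lower after CpG (log2 change -0.87, 95% interval -1.31 to -0.43, adjusted p = 0.287), whose CpG arrays lay below both PBS arrays, as for 9.76% of genes. Leaving out replicate 1 of Ly-6D+ CLPs after PBS gave -1.15 for Mpo, and leaving out replicate 2 gave -0.59. Prtn3 and Ctsg had log2 changes of -0.22 and -0.15, which were -0.59 and -0.74 without replicate 1 of the PBS group and 0.15 and 0.44 without replicate 2. The S100 and later genes lay between -0.01 for S100a8 and 0.17 for Ltf. Averaged over both populations, 0 of 10 passed, against 0.482% of all genes, and 3 had an unadjusted p below 0.05, against 11.3% of genes, with log2 changes of -0.35 for Mpo, 0.41 for Prtn3 and 0.47 for Ctsg. Without replicate 1 of Ly-6D+ CLPs after PBS these averages were -0.49, 0.23 and 0.18, and without replicate 2 they were -0.21, 0.59 and 0.77.

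The CpG effect in Ly-6D+ CLPs minus that in Ly-6D- CLPs was also tested. It was -1.03 for Mpo (95% interval -1.63 to -0.44, unadjusted p = 0.00289), -1.25 for Prtn3 (-2.01 to -0.50, unadjusted p = 0.00384) and -1.24 for Ctsg (-2.11 to -0.38, unadjusted p = 0.00894) in limma. None of the 10 passed after adjustment (0.622, 0.622 and 0.651 for these 3), against 0.0% of all genes, while these 3 had an unadjusted p below 0.05, as did 6.37% of genes. The count over all genes was also 0 with a variance trend and robust estimation. Leaving out replicate 1 of Ly-6D+ CLPs after PBS gave differences of -1.31 for Mpo, -1.62 for Prtn3 and -1.83 for Ctsg, and leaving out replicate 2 gave -0.76, -0.89 and -0.65. Elane had a difference of -0.10 (-1.24 to 1.03), and the S100 and later genes of 0.03 for S100a8 to 0.27 for Camp.

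Replicate 2 was the highest array in all 4 groups for Elane, Ctsg and Ltf, in 3 groups for Prtn3, S100a8, S100a9, Camp, Ngp and Lcn2, and in 2 groups for Mpo. In Ly-6D+ CLPs after PBS it exceeded replicate 1 for all 10 genes. Over the 11 arrays, the deviations of Elane correlated with those of the 6 S100 and later genes at 0.56 to 0.93, those of Prtn3 at 0.48 to 0.93, those of Ctsg at 0.67 to 0.90 and those of Mpo at 0.37 to 0.84. The 6 S100 and later genes correlated among themselves at 0.34 to 0.93. These correlations are descriptions of 11 arrays whose deviations sum to 0 within each group, and the genes share each array's RNA and amplification.

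**Figure D4:**
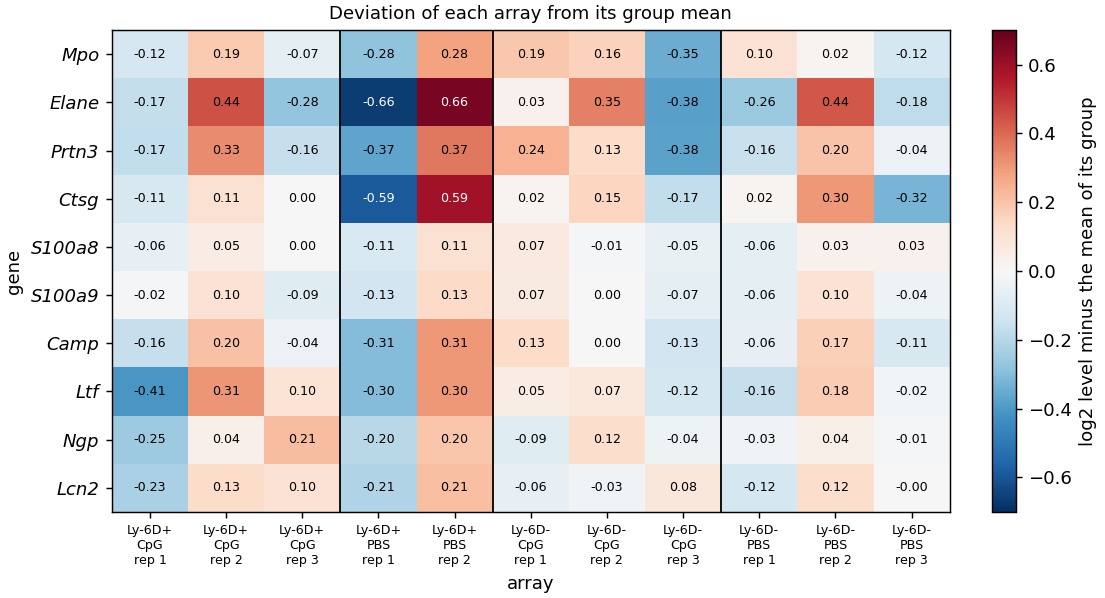
Log2 level minus its group mean for the 10 genes (rows) in the 11 arrays (columns, with lines between groups), in colour and as numbers. Replicate 2 of Ly-6D+ CLPs after PBS is above replicate 1 for all 10 genes, and Elane is highest in replicate 2 of every group.

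Genes with the most similar profiles were found by Pearson correlation over the 11 arrays among 18812 genes. Closest to the mean of the 4 primary granule genes were Anxa3 (r = 0.956), an annexin of neutrophil granules, Hadha (0.953), of mitochondrial fatty acid oxidation, the chemokine gene Ccl9 (0.945), Asap1 (0.936) and Wls (0.932). Anxa3 ranged from 5.35 to 8.64 and Ccl9 from 6.35 to 9.55 over the arrays, whereas Hadha moved by less, from 9.33 to 9.72. Closest to Mpo alone were Ube4b (r = 0.961), Lbp (0.939), Mospd3 (0.930), Ptpn12 (0.925) and Pdk1 (0.923). In deviations from group means, their correlations with Mpo were 0.77, 0.46, 0.55, -0.23 and 0.59, in the same order. For the S100 pair they were Mid2 (r = 0.908), Decr2 (0.903), Fcnb (0.900), which encodes the granule lectin ficolin B, St6gal2 (0.853) and Dffa (0.850). For the later granule genes they were Osgin2 (r = 0.937), Fancg (0.919), Fcnb (0.875), Dad1 (0.875) and Mid2 (0.866). Fcnb ranged from 5.69 to 7.27 and Mid2, a dim probe set, from 2.23 to 2.89.

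Other genes of the granulocyte lineage were read from lists. For the first list, the counts between the populations stand against 2.14% of all genes after CpG and 1.98% after PBS. Among 15 further primary granule and promyelocyte genes, 14 had a negative log2 change in Ly-6D+ against Ly-6D- CLPs after CpG and 1 passed in limma, the hexokinase gene Hk3 (-1.37, SE 0.25, adjusted p = 0.0161). The list median was -0.18, against -0.00 over all genes, and the share of all genes with a negative change was not counted. After PBS, Cd63, a granule membrane tetraspanin, was the 1 gene that passed (-1.22, SE 0.22, adjusted p = 0.0178), and the median was -0.24, against -0.01. CpG changed 0 of the 15 past the threshold in either population, against 0.546% of all genes in Ly-6D- and 0.0271% in Ly-6D+ CLPs. Ctsc, which activates the granule serine proteases, had log2 changes for CpG of 0.54 in Ly-6D+ and 0.48 in Ly-6D- CLPs, and did not pass. Ctsg's neighbour Mcpt8, a serine protease gene of basophils, was lower in Ly-6D+ CLPs after CpG (-1.17, SE 0.24, adjusted p = 0.0353) and after PBS (-1.28, SE 0.27, adjusted p = 0.0406).

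Of 12 listed transcription factors, not all particular to granulocytes, 5 were lower in Ly-6D+ than in Ly-6D- CLPs after CpG and 0 were higher. Of all genes, 0.938% passed as lower. Among those that did not pass after CpG were Gfi1 (-0.23, limma adjusted p = 0.492), Cebpe (-0.31, 0.330) and Cebpd (-0.45, 0.0659). Cebpa, required for granulocyte commitment, had a log2 change of -1.53 (SE 0.16, limma adjusted p = 0.000574), Klf4 of -1.30 (adjusted p = 0.00142), Gata2 of -1.08 (0.0376), Cebpb of -0.98 (0.0188) and Spi1, which encodes PU.1, of -0.79 (0.00944). After PBS, Cebpa (-1.17, adjusted p = 0.00671) and Gata2 (-1.84, adjusted p = 0.00385) were lower and Irf8, a factor of monocyte and dendritic cells, was higher (0.72, adjusted p = 0.00404). CpG raised Klf4 in Ly-6D- CLPs (1.34, SE 0.16, adjusted p = 0.0101), and 0 of the 12 passed for CpG in Ly-6D+ CLPs. The shares of all genes were 0.546% for CpG in Ly-6D- CLPs, 0.0271% for CpG in Ly-6D+ CLPs and 1.98% between the populations after PBS.

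**Figure D5:**
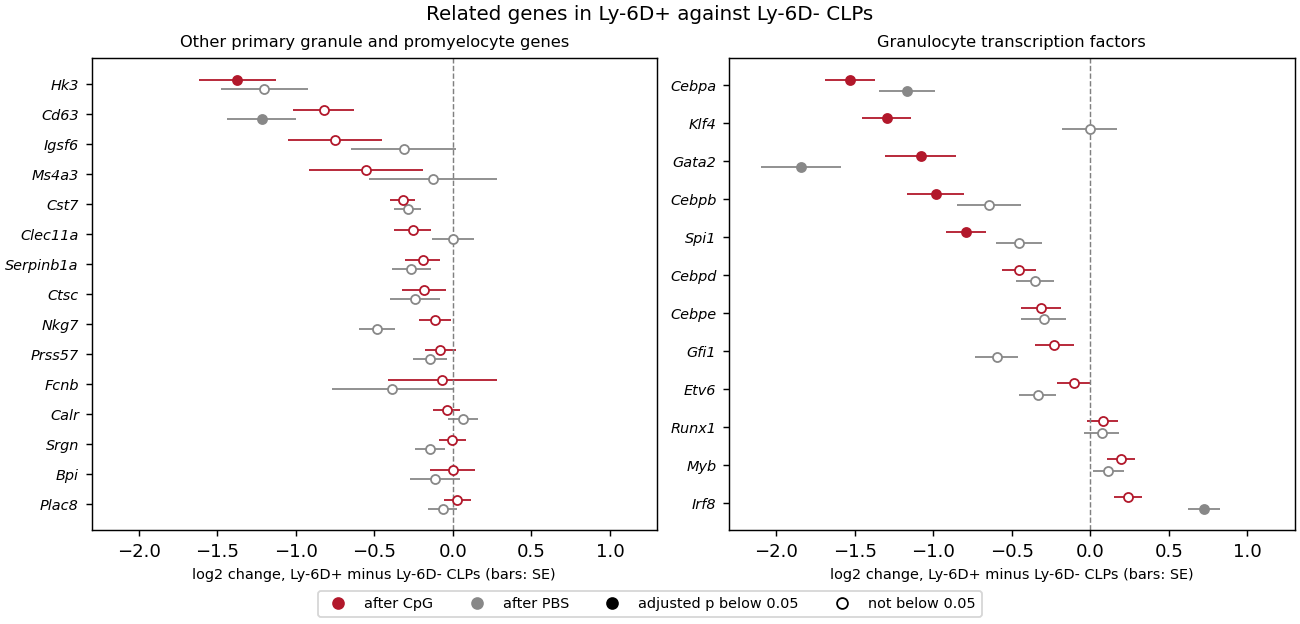
Log2 change in Ly-6D+ minus Ly-6D- CLPs with its SE (horizontal axes), after CpG in red and after PBS in grey. Further primary granule genes are on the left and the listed transcription factors on the right. Filled points mark a limma adjusted p below 0.05. Hk3 is the filled red point on the left, and Cebpa, Klf4, Gata2, Cebpb and Spi1 are those on the right.

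Genes of later neutrophil stages were mixed. Between the populations, 2.14% of all genes passed after CpG and 1.98% after PBS. Of 17 further specific and gelatinase granule genes, 0 passed between the populations after CpG. After PBS, Cybb, the oxidase subunit (1.25, adjusted p = 0.0214), and Slpi, a protease inhibitor (0.65, adjusted p = 0.0223), were higher in Ly-6D+ CLPs in limma. CpG lowered Cd33 in Ly-6D- CLPs (-1.05, adjusted p = 0.0486), where 0.546% of all genes passed. Of 16 measured mature neutrophil genes, Csf3r, the receptor for granulocyte colony-stimulating factor, was lower in Ly-6D+ CLPs after CpG (-1.03, adjusted p = 0.0196) and after PBS (-1.53, adjusted p = 0.00427). After PBS, Padi4 was also lower (-1.17, adjusted p = 0.00579), and Trem1 was higher (1.84, adjusted p = 0.00227). The list's mean level lay within 6.56 to 6.64 in Ly-6D+ CLPs after CpG and 6.24 to 6.63 after PBS, and within 6.55 to 6.67 in Ly-6D- CLPs after CpG and 6.38 to 6.65 after PBS, so the groups overlapped.

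Some markers of other cells were, like Mpo, Prtn3 and Ctsg, lower in Ly-6D+ than in Ly-6D- CLPs after CpG. Against their counts stand 2.14% of all genes that passed between the populations after CpG and 1.98% after PBS. Of 9 measured monocyte markers, 4 were lower in Ly-6D+ CLPs after CpG in limma (Csf1r, Ccr2, F13a1 and Ms4a6c), and F13a1 had the greatest change of the 4 (-3.03, SE 0.21, adjusted p = 4.09e-05). After PBS, 2 passed as lower (Ccr2 and F13a1), and 3 of the 9 had a change above 0, among them Ly6c2 (0.55, limma adjusted p = 0.2455). CpG raised 4 of the 9 in Ly-6D- CLPs (Ccr2, F13a1, Ly6c2 and Ms4a6c), where 0.546% of all genes passed in either direction. It raised 0 of the 9 past the threshold in Ly-6D+ CLPs, against 0.0271% of genes. There, 8 of the 9 still had a positive change for CpG, with a list median of 0.30, whereas Mpo had a change of -0.87. How many of all genes had a positive change was not counted. The mean level of the list was 7.09 to 7.32 in Ly-6D+ CLPs after CpG and 6.77 to 6.85 after PBS, and 7.85 to 8.49 in Ly-6D- CLPs after CpG and 7.06 to 7.32 after PBS. Of 8 eosinophil, basophil and mast cell markers, Mcpt8 and Cpa3 were lower in Ly-6D+ CLPs after both treatments, and the list's mean level was 4.30 to 4.57 in Ly-6D+ CLPs after CpG and 4.31 to 4.85 after PBS, against 4.68 to 5.36 in Ly-6D- CLPs after CpG and 4.55 to 5.32 after PBS. The part of either marker list in the granule gene result was not tested. RMA values do not reach 0, so no marker can be called absent.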

How the data were processed

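Gene expression was measured on 11 arrays. The authors deposited log2 values. The submitters' processing notes name RMA and Partek, without their versions. RNA was amplified from 5 ng by the SPIA method, per the labels' protocols. The table held 41345 probe sets, of which 23521 had exactly 1 gene symbol in the supplied probe table, and the brightest probe set stood for each of 22180 genes.

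A mean for each of the 4 groups was fitted to all arrays in R 4.3.3 by limma 3.58.1 (default eBayes, 7 residual and 3.48 prior degrees of freedom), as were contrasts for CpG, for population and for the difference of the CpG effects. Intervals are 95% intervals from the moderated spread. The fit was tested on simulated data. The members and the 12 lists were chosen with earlier results of these data known. The text names the 10 members, list genes that passed or had the smallest p, and the 5 genes closest in profile to each pattern. Python 3.11.15, pandas 2.3.3 and matplotlib 3.10.9 served for tables and plots.

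The alternatives tried were a fit of single probe sets, averaged probe sets, removal of dim genes, a variance trend with robust estimation, a fit of the compared arrays alone, median centring, a second quantile normalization, a replicate block and the omission of each array in turn. Precision is limited by the number of arrays. No scan date or slide was used here. Background correction could not be varied from RMA values. Protein sequences were not used here.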

Additional observations from a re-analysis of the deposited data

How the results depend on the processing

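Mpo, Prtn3 and Ctsg were lower in Ly-6D+ CLPs after CpG under every alternative run, with adjusted p up to 0.00617, 0.00968 and 0.00664, and the count of members past the threshold there was 3 whichever array was left out (3 to 3). With a variance trend and robust estimation, 2 members passed for CpG in Ly-6D- CLPs (Prtn3 and Ctsg) and 2 between the populations after PBS (Mpo and Ctsg). With the replicate block, 1 passed in each of these comparisons, Prtn3 (adjusted p = 0.0479) and Ctsg (0.0472). Leaving out 1 array gave 0 to 1 members in each. Whether the replicate numbers pair the arrays is not stated. In their deviations from group means, 2 of 15 same-numbered pairs correlated above 0.1 (-0.03 to 0.18). Of 30 pairs with different numbers, 0 did (-0.13 to 0.09), and 7 of 11 arrays correlated best with their own number. The main fit had no block for replicate. Of the member log2 changes under all alternatives, 1088 kept their direction and side of the threshold or shifted by less than 1 SE, 10 came to pass, 22 below the threshold both ways changed sign by more than 1 SE, and 0 that passed reversed. All 22 came from leaving out a replicate of Ly-6D+ CLPs after PBS.

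Genes past the threshold numbered 6 for CpG in Ly-6D+ CLPs (11 with the replicate block, 18 with trend and robust estimation, 0 with only the compared arrays, 4 to 16 without 1 array), 121 for CpG in Ly-6D- CLPs (236 without dim genes, 425 with trend, 4 with only the compared arrays, 5 to 309 without 1 array), 107 for the average (302 with trend, 6 to 216) and 0 for the difference (0 to 1). Between the populations they numbered 439 after PBS (660 with trend, 190 with only the compared arrays, 185 to 416) and 474 after CpG (726 with trend, 264 with only the compared arrays, 264 to 516). The cause of these shifts was not tested. With 1 Ly-6D+ PBS array left out, the other is assumed to vary like the other groups. The fit of only the compared arrays has fewer samples.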

Other observations

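Of 8 plasmacytoid dendritic cell markers, 6 were higher in Ly-6D+ than in Ly-6D- CLPs after CpG and 5 after PBS in limma. Of all genes, 2.14% passed after CpG and 1.98% after PBS, in either direction. Siglech, a lectin of plasmacytoid dendritic cells, had log2 changes of 2.95 after CpG (SE 0.11, limma adjusted p = 4.93e-07) and 2.77 after PBS (SE 0.13, adjusted p = 2.27e-06). Of 9 measured CLP genes, Ebf1, Il7r and Rag2 were higher and Kit lower in Ly-6D+ CLPs after CpG, and Ebf1, the B-lineage factor, had a log2 change of 3.85 (adjusted p = 1.62e-06). After PBS, Ebf1 and Il7r were higher and Kit and Cd27 lower. CpG lowered Il7r (-0.81, adjusted p = 0.0300) and Rag2 (-0.75, adjusted p = 0.0221) in Ly-6D- CLPs, where 0.546% of all genes passed.

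Of 7 conventional dendritic cell markers, Itgax was higher in Ly-6D+ CLPs after both treatments and Batf3 lower after CpG. Of 8 mature B-cell and plasma-cell markers, Sdc1 was higher in Ly-6D+ CLPs after CpG, and Cd79b and Cd22 after PBS. Beside these counts, 2.14% of all genes passed between the populations after CpG and 1.98% after PBS. Of 6 measured erythroid and megakaryocyte markers, Car2 was lower in Ly-6D+ CLPs after both treatments, and of 9 T-cell and NK markers 0 passed in any of the 6 comparisons in limma. The share of all genes that passed ran from 0.0% to 2.14% over the 6 comparisons.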
